A study of Mus musculus with 4 samples.

Results

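Several histone acetyltransferases and other subunits of their complexes are partners of Myc in chromatin. Described here are 10 genes for acetyltransferases and such subunits, by the Myc and Max peaks around their transcription start sites (TSSs). They are Kat2a, Kat2b, Kat5, Myst1, Myst2, Myst3, Myst4, Ep300, Ep400 and Trrap, taken as a list of names, with no threshold on a peak. All 10 were found in the GENCODE M1 annotation of mm9, among 22380 protein-coding genes and 37310 genes in all. The data came from mouse embryonic stem cells (ESCs) of the E14 line, in 4 ChIP-Seq samples of 1 library each. Bio-Myc, which is Myc with a short N-terminal tag that the bacterial ligase BirA biotinylates, was pulled down with streptavidin beads from a single stable E14 clone, in which the EF1α promoter drove the tagged protein beside the endogenous Myc. Max was immunoprecipitated with an antibody from wild-type parental E14 cells, and its control was an IgG ChIP from the same parental cells. The control of Bio-Myc was a mock ChIP with streptavidin, from parental wild-type cells according to the sample labels and from cells with BirA alone according to the methods. All cells grew with LIF and serum. The peak lists of Bio-Myc (3962 peaks) and Max (11570 peaks) were used, and neither control library was analysed here. The lists hold no expression values, so the identity of the cells was not checked against marker genes.

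Acetyltransferases transfer an acetyl group to lysines of the histone tails, a mark of open and transcribed chromatin. Myc recruits several of them through its N-terminal transactivation domain, chiefly through TRRAP, a large scaffold without enzymatic activity that is shared by the SAGA complex, which holds GCN5 or PCAF, and by the complex of TIP60 and the p400 ATPase. Max is the obligate partner of Myc on DNA, where the dimer prefers the E-Box CACGTG, and Max also dimerizes with the Mxd proteins, Mnt and Mga, so a Max site need not be a Myc site. In ESCs these complexes take part in self-renewal, and the question put to the lists was which of the 10 genes were themselves occupied by Bio-Myc, by Max or by both.

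Genes were given the peaks that overlapped a window of 1 kb to either side of any of their annotated TSSs. Bio-Myc peaks were found at 3 of the 10 genes (Kat2a, Myst1 and Myst4), where 14.6% of all protein-coding genes had one. Max peaks were found at 5 (Kat2a, Kat5, Myst3, Myst4 and Ep400), against 34.8% of protein-coding genes. Kat2a and Myst4 had both, a state shared by 12.7% of protein-coding genes. Myst1 was the 1 gene with Bio-Myc and without Max, Kat5, Myst3 and Ep400 had Max without Bio-Myc, and Kat2b, Myst2, Ep300 and Trrap had neither. Within 5 kb, Kat2b gained a peak of each list, which made 4 genes with Bio-Myc (16.6% of protein-coding genes), 6 with Max (38.6%) and 3 with both (14.5%). With 10 genes, 1 gene is 10 percentage points, and with 1 library for each list there was no spread between replicates against which a count could be tested. A gene without a peak is one where the lists hold no region past the p-value of 1e-08 used by the authors, which depends on a read depth that the lists do not give. The Bio-Myc list used here also holds fewer peaks than the number of Myc binding sites in the text of the study. A figure of the paper gives that same number for promoters bound, so the counts may be of unlike units. Whether a missing Bio-Myc peak is one that this list does not hold cannot be told from these counts. The paper counts Gcn5 (Kat2a), Myst2 and P400 (Ep400) among Myc targets known before it. Of these, only Kat2a had a Bio-Myc peak within 1 kb or 5 kb in the list used here.

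**Figure D1:**
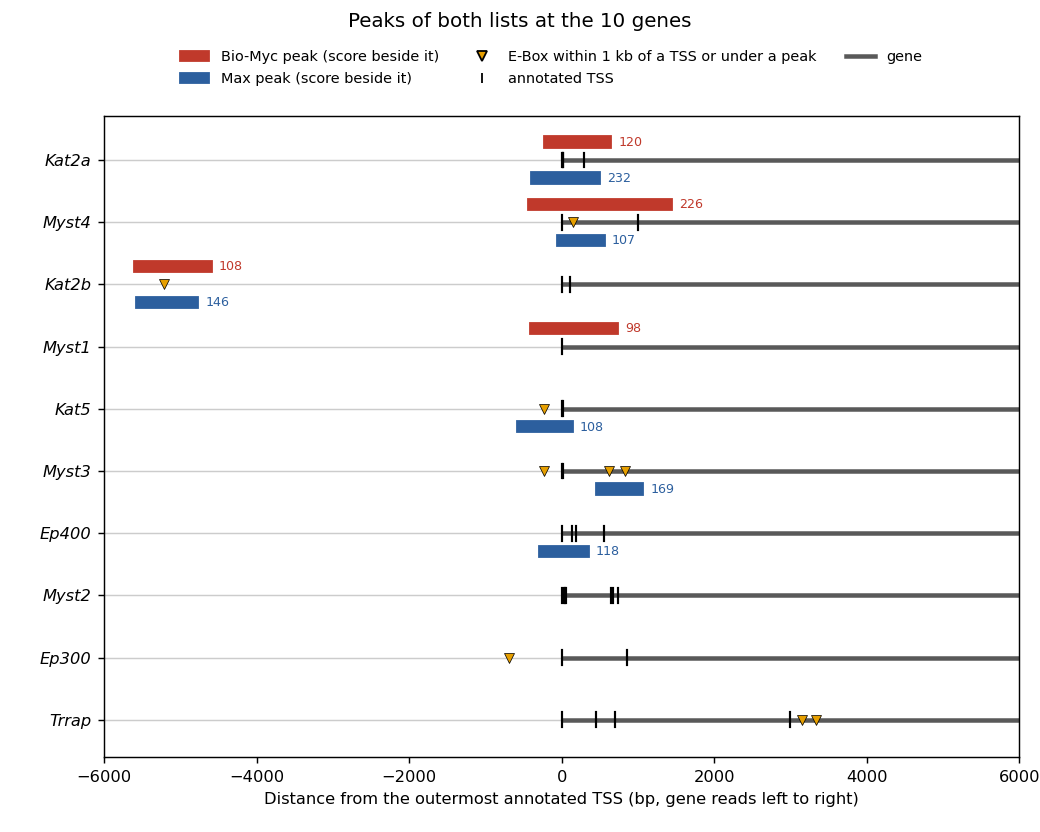
Peaks of the Bio-Myc list (red, above each line) and of the Max list (blue, below it) along the 10 genes, with the distance from the outermost annotated TSS in bp on the x axis and the peak score beside each box; triangles are E-Boxes within 1 kb of a TSS or under a peak. Kat2a and Myst4 carry both peaks over a TSS, Kat2b carries both more than 4 kb upstream, and Myst2, Ep300 and Trrap have no peak in this range.

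The sequences below are mm9 genomic sequence, read 5′ to 3′ on the strand of the gene. They were chosen because they show what lay under the peaks, or at E-Boxes without a peak, at the genes that the comparison turned on. Capitals mark CACGTG, which reads the same on both strands, and CACGCG, a related sequence that Myc and Max can also bind and that reads CGCGTG on the other strand.
Kat2a, upstream of the TSS, under both peaks, without either motif, chr11:100573780-100574015: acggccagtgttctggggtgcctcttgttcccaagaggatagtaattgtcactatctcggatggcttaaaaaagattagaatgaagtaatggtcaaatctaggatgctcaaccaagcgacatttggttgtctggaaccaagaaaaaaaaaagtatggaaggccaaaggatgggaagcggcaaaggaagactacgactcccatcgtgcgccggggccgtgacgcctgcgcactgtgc
Kat2a, coding exon, under both peaks, chr11:100573409-100573468: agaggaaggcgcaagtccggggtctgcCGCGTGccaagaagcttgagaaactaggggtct
Myst4, intron, under both peaks, chr14:22319183-22319482: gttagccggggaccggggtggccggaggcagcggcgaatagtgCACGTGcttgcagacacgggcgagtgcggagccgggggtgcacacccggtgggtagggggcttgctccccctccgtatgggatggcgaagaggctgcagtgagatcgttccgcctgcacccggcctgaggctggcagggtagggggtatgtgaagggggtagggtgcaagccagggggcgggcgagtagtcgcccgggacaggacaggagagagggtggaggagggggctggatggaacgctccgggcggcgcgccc
Kat2b, far upstream, under both peaks, chr17:53700819-53701118: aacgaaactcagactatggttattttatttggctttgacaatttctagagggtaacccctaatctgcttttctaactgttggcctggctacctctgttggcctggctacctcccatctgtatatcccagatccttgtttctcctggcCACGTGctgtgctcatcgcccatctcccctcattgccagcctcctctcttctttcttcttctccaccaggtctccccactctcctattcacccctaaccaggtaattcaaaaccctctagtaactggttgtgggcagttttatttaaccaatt
Kat5, upstream of the TSS, under the Max peak, chr19:5610051-5610350: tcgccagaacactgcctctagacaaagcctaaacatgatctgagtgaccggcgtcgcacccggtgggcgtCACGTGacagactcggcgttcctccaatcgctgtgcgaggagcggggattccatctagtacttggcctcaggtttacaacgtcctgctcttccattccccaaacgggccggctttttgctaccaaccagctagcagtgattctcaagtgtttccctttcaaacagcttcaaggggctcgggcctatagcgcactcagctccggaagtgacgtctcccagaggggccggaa
Myst3, intron, under the Max peak, chr8:23970580-23970879: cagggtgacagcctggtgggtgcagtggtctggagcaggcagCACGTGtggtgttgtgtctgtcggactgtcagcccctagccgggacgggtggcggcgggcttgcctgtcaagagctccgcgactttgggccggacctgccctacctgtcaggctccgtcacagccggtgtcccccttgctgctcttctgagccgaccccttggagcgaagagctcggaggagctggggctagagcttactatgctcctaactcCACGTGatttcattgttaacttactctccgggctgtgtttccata
Ep400, upstream of the TSS, under the Max peak, chr5:111199737-111200031: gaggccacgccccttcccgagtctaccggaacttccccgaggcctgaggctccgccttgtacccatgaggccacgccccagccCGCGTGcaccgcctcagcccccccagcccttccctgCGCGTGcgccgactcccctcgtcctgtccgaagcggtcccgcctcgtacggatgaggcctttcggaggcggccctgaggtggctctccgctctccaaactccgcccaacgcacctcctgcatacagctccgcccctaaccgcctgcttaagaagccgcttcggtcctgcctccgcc
Myst1, coding exon, under the Bio-Myc peak, chr7:135056158-135056217: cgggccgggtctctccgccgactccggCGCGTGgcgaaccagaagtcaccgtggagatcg
Myst3, upstream of the TSS, without a peak, chr8:23969747-23969806: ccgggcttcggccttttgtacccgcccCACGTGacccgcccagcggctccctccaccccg
Ep300, upstream of the TSS, without a peak, chr15:81415064-81415123: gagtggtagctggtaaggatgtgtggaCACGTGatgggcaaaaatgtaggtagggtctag

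Kat2a encodes GCN5, the acetyltransferase of the SAGA and ATAC complexes. The gene (ENSMUSG00000020918.7, chr11:100566060-100573779, minus strand) carried Bio-Myc at chr11:100573126-100574015, over 890 bp, and Max at chr11:100573269-100574179, over 911 bp, and each peak covered 4 of its 4 annotated TSSs. The peaks shared 747 bp, which is 83.9% of the Bio-Myc peak and 82.0% of the Max peak, and their centres lay 154 bp apart. The score of a peak is -10 times the log10 of its MACS p-value, so that 80 is the limit of 1e-08. Kat2a scored 120 in the Bio-Myc list, at rank 2204 of 3962 (the first 55.6%), and 232 in the Max list, at rank 3610 of 11570 (the first 31.2%). Scores were ranked only within a list, since they grow with read depth. Neither peak held CACGTG, while among the peaks within 1 kb of a protein-coding TSS 49.6% of the Bio-Myc list and 36.6% of the Max list held at least 1. Both peaks held the same CACGCG, in a coding exon 341 bp downstream of the outermost TSS and 132 bp from the Bio-Myc centre, and the 236 bases printed above from the outermost TSS upstream held neither motif. The Max peak also lay within 1 kb of the TSS of Hspb9, a small heat shock protein gene.

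Kat2b encodes PCAF, the paralog of GCN5 that takes its place in the same complexes. No peak lay within 1 kb of its 7 TSSs (ENSMUSG00000000708.8, chr17:53706186-53812045, plus strand). A Bio-Myc peak at chr17:53700579-53701604 (1026 bp, score 108, rank 2596 of 3962) ended 4582 bp upstream of its outermost TSS, and a Max peak at chr17:53700611-53701425 (815 bp, score 146, rank 6401 of 11570) lay wholly inside it. Both held 1 CACGTG, 5218 bp upstream of the TSS, 123 bp from the Bio-Myc centre and 50 bp from the Max centre. No gene was annotated at the centres of these peaks, and Kat2b had the nearest protein-coding TSS. The GC content under the peaks was 42.0% and 43.2%, lower than under the 8 promoter peaks of the other genes, which ranged from 53.1% to 71.8%. Of all protein-coding genes, 192 (0.858%) had neither peak within 1 kb and both within 5 kb.

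Kat5 encodes TIP60, the catalytic subunit of the complex in which TRRAP and p400 reside. The gene (ENSMUSG00000024926.8, chr19:5603017-5610050, minus strand) had a Max peak at chr19:5609907-5610637, 731 bp wide, that covered both of its TSSs. The score was 108, at rank 8763 of 11570 (the first 75.7%). Under it lay 1 CACGTG, 227 bp upstream of the outermost TSS and 5 bp from the centre of the peak, the shortest distance from an E-Box to a peak centre among the 10 genes. No Bio-Myc peak lay closer than 44.1 kb, where one with a score of 86.9 covered a coding exon of Sipa1.

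Ep400 encodes p400, the ATPase of the TIP60 complex that exchanges the histone variant H2A.Z into nucleosomes. The gene (ENSMUSG00000029505.9, chr5:111093392-111199736, minus strand) had a Max peak at chr5:111199376-111200031, 656 bp wide, with a score of 118, at rank 8085 of 11570 (the first 69.9%). It covered 3 of the 9 annotated TSSs and lay within 1 kb of a TSS of Gm15559, a gene of a long non-coding RNA. CACGTG was absent from the peak, and 2 copies of CACGCG stood 173 bp and 209 bp upstream of the outermost TSS. The nearest Bio-Myc peak started 9281 bp upstream, at chr5:111209017-111210060, over the TSS of Pus1, a pseudouridine synthase gene. That peak scored 300 (299.98), at rank 441 of 3962 (the first 11.1%), held 1 CACGTG and overlapped 1 Max peak. The Bio-Myc peak nearest to Ep400 thus stood at the start of a neighbouring gene. In these lists Ep400 itself had Max alone, although the paper names it among earlier Myc targets.

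Trrap encodes the scaffold through which Myc contacts both complexes. Neither list had a peak within 5 kb of its 9 TSSs (ENSMUSG00000045482.9, chr5:145528961-145620647, plus strand). The nearest Bio-Myc peak lay 55.8 kb downstream of its last TSS, in an intron of Smurf1, with a score of 166, and the nearest Max peak 222 kb upstream, over the TSS of Nptx2, with a score of 351. Over all protein-coding genes the median distance to the nearest peak was 113 kb for Bio-Myc and 22.1 kb for Max, and 20.2% of genes were farther than Trrap from a Max peak. Trrap had 6 CACGTG within 1 kb of its TSSs, more than any other of the 10 genes, and none lay under a peak of either list. These 6 stood between 3157 and 51404 bp downstream of the outermost TSS, near internal TSSs, and the 1 kb on either side of the outermost TSS held none. Within 1 kb of its TSSs it also had 3 CACGCG, of which 2 overlapped by 2 bases, 196 and 200 bp downstream of the outermost TSS. More TSSs give more room for a peak, and of the 1528 protein-coding genes with 9 or more TSSs 28.5% carried Bio-Myc and 59.3% carried Max. Trrap, Myst2 and Ep400, each with 9, had 1 Max peak and no Bio-Myc peak among them.

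Of the MYST family, to which TIP60 also belongs, Myst4 had the strongest Bio-Myc peak. Myst4 encodes MORF (now Kat6b), an acetyltransferase of histone H3 with roles in development and neural stem cells. The gene (ENSMUSG00000021767.8, chr14:22319076-22491354, plus strand) had a Bio-Myc peak at chr14:22318631-22320530, with a score of 226, at rank 775 of 3962 (the first 19.6%), over 2 of its 3 TSSs. The peak was 1900 bp wide, and 4.97% of the Bio-Myc promoter peaks were as wide or wider, with a median of 1054 bp. The Max peak at chr14:22319014-22319640 lay wholly inside it, was 627 bp wide and filled 33.0% of it, and covered 1 TSS. It scored 107, at rank 8844 of 11570 (the first 76.4%). The rank in the Max list was thus 56.9 percentage points lower than that in the Bio-Myc list, a gap that was as large or larger in 31 (1.29%) of 2410 overlapping pairs of promoter peaks. The same difference, the Max rank percent minus that of Bio-Myc, had the other sign at Kat2a (-24.4) and at the upstream peaks of Kat2b (-10.2), and 67.0% and 50.3% of the promoter pairs had a value as high or higher. These percentages come from lists of unequal length. In 34.1% of those pairs the Bio-Myc peak had the higher rank within its list. Both peaks held 1 CACGTG at chr14:22319226-22319231, in the first intron 152 bp downstream of the TSS, which was 99 bp from the Max centre and 352 bp from the Bio-Myc centre. A CACGCG lay 462 bp downstream of the TSS, 42 bp from the Bio-Myc centre and 211 bp from the Max centre.

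Myst3 encodes MOZ (now Kat6a), the close paralog of MORF, which is required for hematopoietic stem cells. The gene (ENSMUSG00000031540.7, chr8:23970007-24053731, plus strand) had a Max peak and no Bio-Myc peak nearer than 343 kb, where 29.5% of protein-coding genes were farther from one. The Max peak at chr8:23970458-23971079, 622 bp wide, covered none of its 3 TSSs and began 437 bp downstream of the nearest, in the first intron. It scored 169, at rank 5436 of 11570 (the first 47.0%). It held 2 CACGTG, 617 and 830 bp downstream of the outermost TSS and 144 and 69 bp from the centre of the peak, a number reached by 8.50% of the Max promoter peaks. Another CACGTG, 231 bp upstream of the TSS, lay under no peak, and neither did one 459 bp downstream of its internal TSS. Chromosome 8 stood apart in the Max list, with 6.34 Max peaks for each Bio-Myc peak against 2.72 on the other chromosomes together, and 44.1% of its protein-coding genes had Max without Bio-Myc against 21.0% elsewhere. On that chromosome 27.9% of the Max peaks held CACGTG, against 39.3% elsewhere, and the part of this in the state of Myst3 was not tested. Without chromosome 8, Max was found at 4 of 9 genes and at 33.5% of protein-coding genes.

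Myst1 encodes MOF (now Kat8), the acetyltransferase of histone H4 lysine 16 in the MSL and NSL complexes. The gene (ENSMUSG00000030801.9, chr7:135056031-135069346, plus strand) had a Bio-Myc peak at chr7:135055623-135056776, 1154 bp wide, over its 1 annotated TSS. Its score of 98.1 was the lowest of the 3 Bio-Myc promoter peaks, at rank 3002 of 3962 (the first 75.8%). CACGTG was absent, and 1 CACGCG lay in a coding exon 156 bp downstream of the TSS, 12 bp from the centre of the peak. The nearest Max peak was 7496 bp upstream, over a TSS of Bckdk, a kinase gene of amino acid catabolism, with a score of 87.1 at rank 10660 of 11570, and it overlapped a Bio-Myc peak there. Bio-Myc without Max was the rarest state, found at 443 protein-coding genes (1.98%), and 86.5% of the genes with a Bio-Myc peak also had a Max peak. Of the genes with a Max peak, 36.4% had a Bio-Myc peak.

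Myst2 encodes HBO1 (now Kat7), which acetylates histones H3 and H4 and was named for its binding to the replication origin complex. Its 9 TSSs (ENSMUSG00000038909.10, chr11:95135573-95171560, minus strand) had no peak of either list within 5 kb. A Max peak with a score of 483, at rank 1024 of 11570 (the first 8.85%), lay 22.2 kb downstream of its last TSS and 1868 bp from a TSS of Tac4, and held 2 CACGTG. For Bio-Myc the nearest was 356 kb away, over Phb on the upstream side. A distance to Bio-Myc larger than this was found for 28.7% of protein-coding genes. Myst2 and Myst3 were thus farther from Bio-Myc than the median gene, and the other 8 genes were nearer.

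Ep300 encodes p300, an acetyltransferase outside these complexes that marks active enhancers and that binds and acetylates Myc. No peak lay within 5 kb of its 2 TSSs (ENSMUSG00000055024.5, chr15:81415781-81482507, plus strand). A CACGTG stood 688 bp upstream of the outermost TSS without a peak. The nearest peaks of both lists lay together 61.6 kb upstream, outside any annotated gene at their centres, with the nearest protein-coding TSS, that of Gm5218, 22728 bp from the Max peak. There Bio-Myc scored 379 (chr15:81353182-81354186, rank 271 of 3962, the first 6.84%) and Max scored 717 (chr15:81352706-81354182, rank 430 of 11570, the first 3.72%). Each held 2 CACGTG. These ranks were higher than those of any peak within 5 kb of the 10 genes in the same list, and neither list ties such a peak to the gene.

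**Figure D2:**
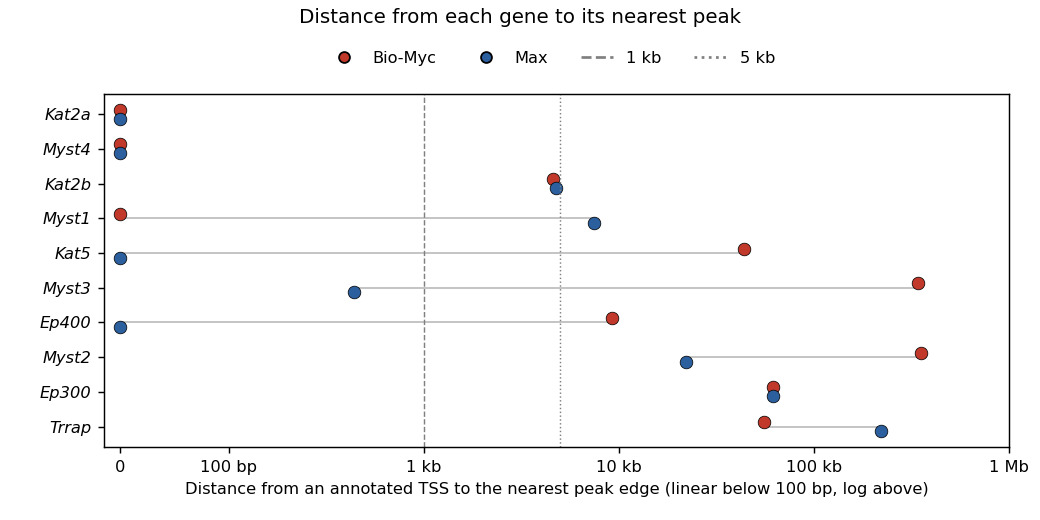
Distance from an annotated TSS of each gene to the edge of the nearest Bio-Myc (red) and Max (blue) peak, 0 where a peak covered a TSS, on an axis that is linear below 100 bp and logarithmic above. For Kat5, Myst3, Ep400 and Myst2 the nearest Max peak was the closer one, for Myst1 and Trrap the nearest Bio-Myc peak, and at Kat2b and Ep300 the peaks of both lists overlapped.

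Of the 8 promoter peaks at these genes, 6 scored below the median promoter peak of their list, and those of Bio-Myc at Myst4 and of Max at Kat2a scored above it. Of the 2900 Bio-Myc peaks within 1 kb of a protein-coding TSS, 23.2% scored as high as Myst4 or higher, 60.1% as high as Kat2a and 78.8% as high as Myst1, where the median score was 138. Of the 7569 Max promoter peaks, with a median of 181, 37.3% scored as high as Kat2a, 54.1% as high as Myst3, 75.8% as high as Ep400, 80.8% as high as Kat5 and 81.4% as high as Myst4. Kat2a and Myst4, the genes with both peaks, stood in opposite order in the lists, with Myst4 first for Bio-Myc and Kat2a first for Max. At a p-value of 1e-11, Bio-Myc remained at Kat2a and Myst4, beside 10.2% of protein-coding genes, and Max at Kat2a, Myst3 and Ep400, beside 28.8%. At 1e-15, Bio-Myc remained at Myst4 and Max at Kat2a and Myst3, so that no gene kept both, where 5.85% of protein-coding genes did.

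**Figure D3:**
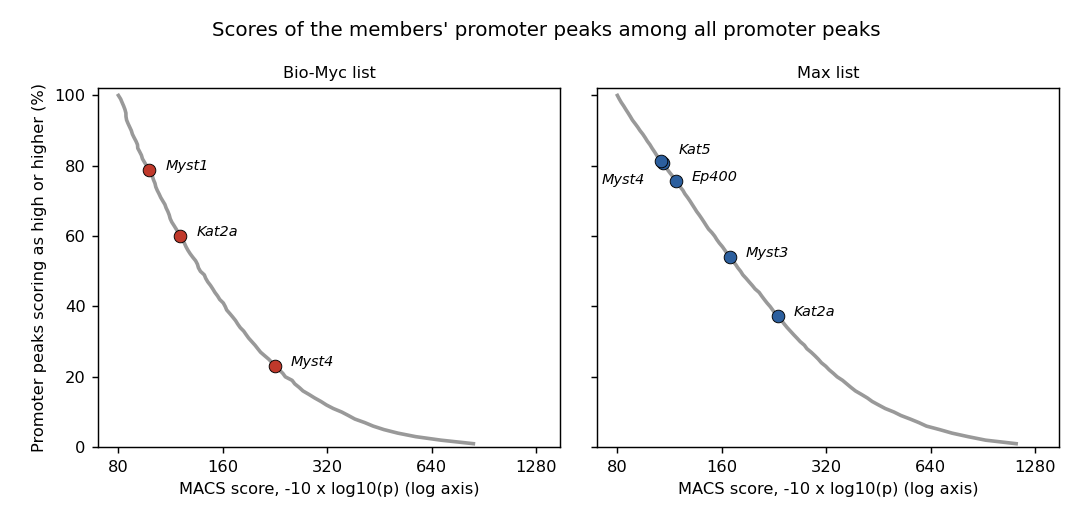
Score of each promoter peak of the 10 genes (x axis, log scale) and the share of all promoter peaks of the same list that scored as high or higher (y axis, %), for Bio-Myc (left) and Max (right); the grey line is the distribution of all promoter peaks. Only Myst4 for Bio-Myc (23.2%) and Kat2a for Max (37.3%) lie in the stronger part of the lists.

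CACGTG was present under 4 of the 8 promoter peaks, which were 1 of 3 Bio-Myc peaks (Myst4) and 3 of 5 Max peaks (Kat5, Myst3 and Myst4), beside 49.6% and 36.6% of all promoter peaks of the lists. Counted for each peak there were 5 E-Boxes, at 4 positions, since the peaks of Myst4 shared one. When CACGCG was counted as well, all 8 peaks held at least 1 of these motifs, where 78.4% of the Bio-Myc and 67.7% of the Max promoter peaks did. A match of letters is no proof of a site. E-Boxes also stood near TSSs without a peak, at Ep300, Myst2 and Trrap and, for Myst3, upstream of the gene and near its internal TSS. Of all protein-coding genes, 27.8% had a CACGTG within 1 kb of the outermost TSS, with 52.8% of the genes with both peaks and 20.1% of those with neither. For CACGCG the share of all protein-coding genes was 33.2%. In that window Kat5, Myst3, Myst4 and Ep300 held CACGTG, and Kat2a, Myst1, Myst2, Myst3, Myst4, Ep400 and Trrap held CACGCG. Of the latter, Myst2 and Trrap had no promoter peak, and the CACGCG of Myst3 lay outside its Max peak. Among all promoter peaks, 55.8% of the Bio-Myc list and 48.5% of the Max list held CACGCG.

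CpG content differed between genes with and without peaks, and it was high at these genes. The ratio of observed to expected CpG in the 500 bp on either side of the outermost TSS had a median of 0.549 over all protein-coding genes, 0.789 over those with both peaks and 0.318 over those with neither. It was above 0.6 at 8 of the 10 genes and at 45.6% of protein-coding genes. Among protein-coding genes above 0.6, Bio-Myc was found at 27.0%, Max at 59.8% and both at 23.8%, and among the others the shares were 4.22%, 13.8% and 3.34%. Of the 8 genes above 0.6, Bio-Myc was found at 1 (Myst4), Max at 4 (Kat5, Myst3, Myst4 and Ep400) and both at 1, and the part of CpG content in the counts was not tested. Kat2a (0.565) and Myst1 (0.588) were the 2 genes at or under 0.6, and both had a Bio-Myc peak. The 4 genes with neither peak, Trrap (0.698), Ep300 (0.731), Kat2b (0.848) and Myst2 (0.869), were all above the upper quartile of protein-coding genes with neither, which was 0.622. Ep400 had the highest ratio (0.996, exceeded by 2.04% of protein-coding genes), and Myst3 the highest GC content (79.1%, exceeded by 0.112%).

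**Figure D4:**
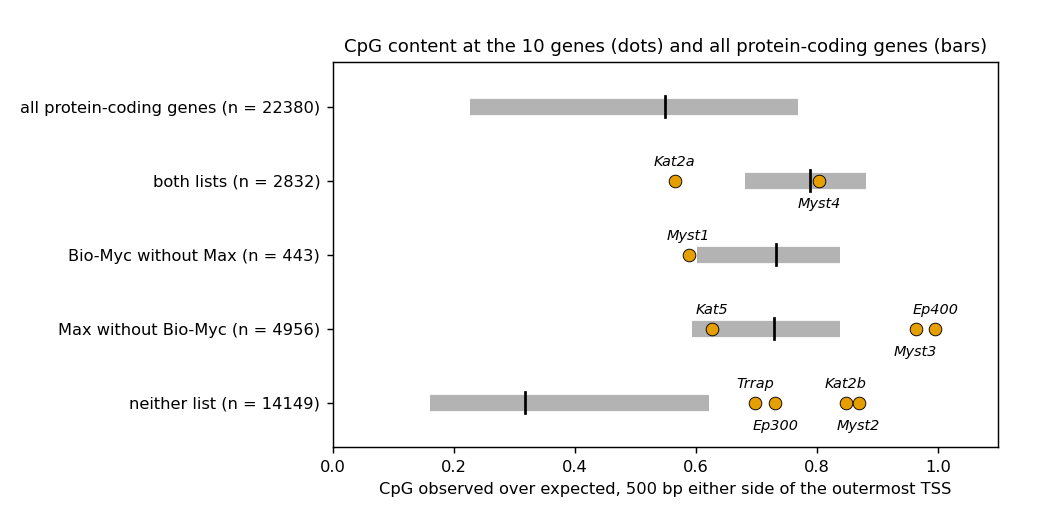
Ratio of observed to expected CpG within 500 bp of the outermost TSS (x axis) for the 10 genes (dots, in the row of their peak state within 1 kb) and for all protein-coding genes of that state (grey bar from the lower to the upper quartile, line at the median). Kat2a and Myst1 lie below the bars of their rows, and Trrap, Ep300, Kat2b and Myst2 above that of the genes with neither peak.

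The subunits that work with these enzymes were looked up in the same way, in lists drawn from what is known of each complex. Each gene was placed in 1 list, also where its product works in several complexes, so the shares of the lists depend on this choice. Of 58 partner genes in 4 lists, Bio-Myc was found within 1 kb of 29 (50.0%), Max of 41 (70.7%) and both of 26 (44.8%), beside the 14.6%, 34.8% and 12.7% of all protein-coding genes. These genes too were rich in CpG, with a median ratio of 0.831 and 87.9% above 0.6, and had a median of 4 TSSs where the median gene had 2. The part of either in the counts was not tested. With the outermost TSS alone, Bio-Myc was found at 24 and Max at 34 of the 58, beside 13.6% and 32.2% of all protein-coding genes.

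In the TIP60 complex the catalytic subunit Kat5 had Max alone, Ep400 had Max alone and Trrap had neither, while of the 15 other subunit genes Bio-Myc was found at 11, Max at 11 and both at 9. The highest scores were those of Mbtd1, which encodes a reader of methylated histone H4, with 362 for Bio-Myc and 818 for Max. Dmap1 (score 106) and Ing3 (score 127) had Bio-Myc without Max, and Epc2 and Vps72 had neither. Among 25 genes of SAGA and ATAC, the complexes of Kat2a and Kat2b, 12 had a Bio-Myc peak, and the same 12 were among the 18 with a Max peak. Zzz3, an ATAC subunit, had the highest Bio-Myc score (462), and Sf3b3, a splicing factor that is also a SAGA subunit, the highest Max score (1057), with 417 for Bio-Myc. Sf3b3 lies on chromosome 8, which stood apart in the Max list, and the part of this in its score was not tested.

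For Myst1, 4 of the 10 genes of the MSL and NSL complexes had Bio-Myc, 7 had Max and 3 had both. Ogt, the O-GlcNAc transferase, had Bio-Myc without Max (score 96.0), as Myst1 did, and Mcrs1 and Hcfc1 had neither. Msl2 had the highest Bio-Myc score (214) and Phf20 the highest Max score (356). The BRPF, JADE and ING subunits of the Myst2, Myst3 and Myst4 complexes were listed together, although not all of them work with each enzyme. In this list 2 of 8 genes had Bio-Myc, 5 had Max and 2 had both. These were led by Ing5 (262 for Bio-Myc) and Jade1, annotated as Phf17 (341 for Max), and Brpf3, Ing4 and Jade3 had neither.

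Of 10 other acetyltransferase genes, not all of them for enzymes known chiefly for acetylating histones, 4 had Bio-Myc, 6 had Max and 4 had both. Crebbp, which encodes CBP, the paralog of p300, had a Max peak with a score of 201 and no Bio-Myc peak, where Ep300 had neither. Naa50 had the highest Bio-Myc score (356) and Gtf3c4 the highest Max score (927), and Taf1, Ncoa1, Ncoa3 and Elp3 had neither. Of 14 genes of the histone deacetylase complexes, which remove acetyl groups from histones, 5 (35.7%) had Bio-Myc, 7 (50.0%) had Max and 3 (21.4%) had both. The shares of all protein-coding genes were 14.6%, 34.8% and 12.7%. The part of CpG content and of the number of TSSs in the counts of these gene lists was not tested. Hdac2 had a Max peak with a score of 1601, at rank 46 of 11570, and no Bio-Myc peak. Sin3a had the highest Bio-Myc score (188), Rcor1 (105) had Bio-Myc without Max, and Hdac1, Chd4, Mta1, Sap18 and Sirt1 had neither.

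**Figure D5:**
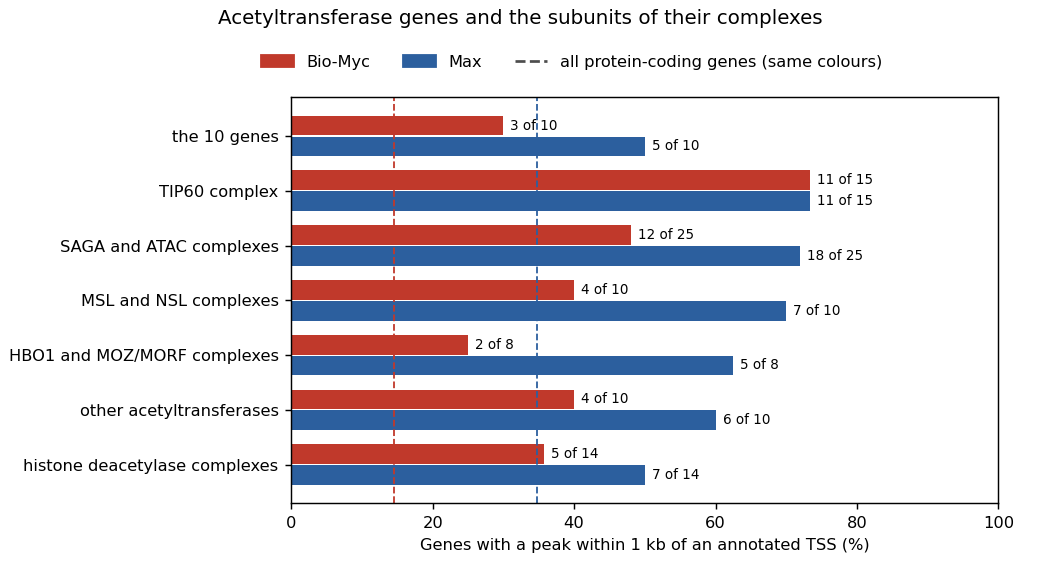
Share of genes with a Bio-Myc (red) and a Max (blue) peak within 1 kb of an annotated TSS (x axis, %), for the 10 genes and for 6 lists of partner and related genes, with the counts beside the bars; dashed lines are the shares of all protein-coding genes (14.6% and 34.8%). The TIP60 list, which leaves out Kat5, Ep400 and Trrap, has the highest Bio-Myc share, 11 of 15 genes, and every bar lies above the line of its colour. Among protein-coding genes with a CpG ratio above 0.6 the shares were 27.0% and 59.8%. The Bio-Myc bar of the HBO1 and MOZ/MORF list and the Max bars of the 10 genes and the deacetylase list are lower than these.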

How the data were processed

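ChIP-Seq libraries of Bio-Myc and Max were sequenced by the authors on an Illumina HiScanSQ, aligned to the mm9 genome in Bowtie 0.12.7, which kept uniquely placed reads with at most 2 mismatches, freed of redundant reads and compared with the mock or IgG library by MACS 1.4.1, with 1e-08 as the limit of the p-value. The submitters' processing notes also name CASAVA 1.8. The deposited lists give each peak a score, which is -10 times the log10 of the MACS p-value. They hold no reads, so depth and its precision are unknown, and unique mapping leaves out most repeated sequence. 

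Peaks were matched by an overlap of at least 1 bp to windows of 1 kb and 5 kb around every TSS of GENCODE M1, on the assembly of mm9, and motifs were counted on both strands under whole peaks. Python 3.11.15, pysam 0.24.0, samtools 1.23.1 and matplotlib 3.10.9 were used, and the matching steps were tested on simulated data. The 10 genes and the partner lists were chosen with earlier results of these data known. Partner genes named are those with the highest score of each list, those with Bio-Myc without Max and, where at most 5, those with neither. A partner gene that falls under this rule is not reported here. Crebbp and the genes at distant peaks were named after their values were seen. Without replicates no test was made. Other windows, TSSs, p-values, motifs and peak centres were tried, and the alternatives for partner genes were added after the data were seen.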

Additional observations from a re-analysis of the deposited data

How the results depend on the processing

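The counts of genes moved more with the p-value limit than with the window. At 1e-11 the genes with both peaks went from 2 to 1 and those with Max from 5 to 3, beside 8.82% and 28.8% of protein-coding genes. At 1e-15 those with both went to 0, those with Bio-Myc from 3 to 1, those with Max to 2, beside 5.85%, 6.85% and 22.6%, and partner genes with Bio-Myc from 29 to 13. This follows from fewer peaks. The E-Boxes under the promoter peaks went from 5 to 3 at 1e-15, and the peaks with one from 4 of 8 to 2 of the 3 that remained. With CACGTG or CACGCG counted, there were 12 motifs, under 8 of 8 peaks. With a TSS itself covered, Max was found at 4 genes, without Myst3, beside 30.0% of protein-coding genes, and the window of 5 kb added Kat2b to each count. Windows of 500 bp and of 3 kb upstream to 2 kb downstream, the outermost TSS, TSSs of coding transcripts and peak centres gave the genes of the main count. No paired analysis was possible because the design holds 1 library for each ChIP and no test was made. Depth, which the lists do not hold, limits what a missing peak says.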
